A study of Mus musculus with 4 samples.

Results

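The receptors that bind the Fc part of immunoglobulin G, their shared signalling chain and the neonatal Fc receptor were followed through single cells of transplanted mouse hearts. The 6 genes were taken by symbol from the 30905 genes of the deposited matrix: *Fcgr1*, *Fcgr3* and *Fcgr4*, which encode activating receptors, *Fcgr2b*, which encodes the inhibitory receptor, *Fcer1g*, which encodes the common gamma chain, and *Fcgrt*, which encodes the heavy chain of the neonatal Fc receptor. All 6 were found and all 6 had counts. The study placed hearts heterotopically into adult male C57BL/6J mice and collected them on day 5, with 2 allogeneic grafts from strain Balb/C and 2 syngeneic grafts from strain C57BL/6J. Cells were released by enzymatic digestion, red cells were lysed and cDNA was made from the 3' ends of transcripts with droplet chemistry, and a graft holds donor cells and recipient cells that were not separated. The deposited data are UMI counts (unique molecular identifiers, each standing for a captured transcript) in 1 merged gene-by-cell matrix of 53824 barcodes, which carry a suffix from 1 to 4. No label pairs a suffix with a graft, so the cells were handled as 1 pooled sample, the suffixes as libraries of unknown graft, and no comparison of allogeneic with syngeneic hearts was made.

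Activating Fc gamma receptors bind antibody-coated targets and signal through the immunoreceptor tyrosine-based activation motif (ITAM) of the gamma chain, which recruits the kinase Syk and triggers phagocytosis, cytokine release and cell killing. The inhibitory receptor carries an inhibitory motif, recruits the lipid phosphatase encoded by *Inpp5d* and raises the threshold for activation, and it is also the only classical Fc gamma receptor of B cells. The neonatal receptor pairs with beta-2 microglobulin and returns endocytosed immunoglobulin G and albumin to the cell surface. In transplanted hearts, Fc receptors of macrophages and natural killer (NK) cells are studied for their part in antibody-mediated injury.

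Of the 53824 barcodes, 44626 had over 200 genes and under 20% mitochondrial UMIs, and 42395 remained after marked doublets were left out. Over all barcodes before filtering, total UMIs per suffix ranged from 96020294 to 166079145, and the median barcode had 4759 to 9784 UMIs. Among barcodes within both limits, before doublets were left out, the medians were 5021.5 to 12649.5 UMIs. The same barcode sequence occurred under more than 1 suffix in 308 of 53516 cases, with 40 to 60 shared by a pair of suffixes. Clustering without the 6 genes and without 51 further genes of the pathway gave 28 clusters. Of these, 21 clusters formed 10 classes with names from marker genes and 7 clusters with 7972 cells stayed unnamed. In 12 clusters over 90% of the cells carried the same suffix, so a difference between such clusters is also a difference between libraries. Of the 7538 macrophage-like cells 5886 carried suffix 4, against 432, 150 and 1070 for suffixes 1 to 3, and values are therefore given per suffix. The macrophage markers were all detected in these cells, 10 of 10, with a summed level of 21138 to 35582 CPM over the suffixes, where CPM is the number of UMIs of a gene in 1000000 UMIs of the cells. CPM values were summed over a group of cells, with mitochondrial genes left out of the total. Their 95% intervals are exact for Poisson counts and cover counting error only. No value has biological replicates and no test was made. Counts from 3' ends do not scale with transcript length, but capture differs between genes, so levels are compared between cell groups and not between genes.

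By position on GRCm38, 4 of the genes stand on chromosome 1. *Fcgr2b* (ENSMUSG00000026656) spans 170958617 to 170976547 on the minus strand, *Fcgr4* (ENSMUSG00000059089) 171018920 to 171029761 on the plus strand, *Fcgr3* (ENSMUSG00000059498) 171051174 to 171064935 on the minus strand and *Fcer1g* (ENSMUSG00000058715) 171229572 to 171234365 on the minus strand. *Fcgr1* (ENSMUSG00000015947) lies on chromosome 3 from 96282909 to 96293969 and *Fcgrt* (ENSMUSG00000003420) on chromosome 7 from 45092990 to 45103851, both on the minus strand. The annotation places the antisense gene Gm38204 over *Fcgr2b* and Gm45669 over *Fcgrt*, and reads of such pairs could be exchanged if strand was not used in counting, which the sources do not state. *Fcgr3* and *Fcgr2b* are close paralogs. Their annotated transcripts shared 166 of the 1627 words of 50 bases in *Fcgr3*, or 10.2%, and 4.48% of the 3708 words in *Fcgr2b*. Within the last 500 bases of each transcript, where 3' libraries take most of their reads, 0 of the 922 words of *Fcgr3* and 33 of the 1467 words of *Fcgr2b* were shared, and no other pair of the 6 genes shared a word.

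The sequences before the transcription start of *Fcgr1*, *Fcgr4* and *Fcgrt* are shown because these 3 genes differed most between the libraries in macrophage-like cells. They were taken from RefSeq windows on GRCm38.p6, read 5' to 3' on the strand of the gene, and end before the first annotated transcribed base. The capitals mark GAGGAA, the core letters bound by the myeloid factor PU.1, read on either strand (so also as TTCCTC), and TTCNNNGAA, the letters of an interferon-gamma-activated site. They were searched on both strands in windows of 300 bases. *Fcgr1* holds both motifs without overlap, *Fcgr4* holds the first and *Fcgrt* holds neither.
Fcgr1, chr3:96293970-96294219: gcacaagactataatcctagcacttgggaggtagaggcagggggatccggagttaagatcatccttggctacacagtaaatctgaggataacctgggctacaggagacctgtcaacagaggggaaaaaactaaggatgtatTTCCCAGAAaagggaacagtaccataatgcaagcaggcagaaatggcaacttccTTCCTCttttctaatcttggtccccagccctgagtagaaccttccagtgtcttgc
Fcgr4, chr1:171018676-171018919: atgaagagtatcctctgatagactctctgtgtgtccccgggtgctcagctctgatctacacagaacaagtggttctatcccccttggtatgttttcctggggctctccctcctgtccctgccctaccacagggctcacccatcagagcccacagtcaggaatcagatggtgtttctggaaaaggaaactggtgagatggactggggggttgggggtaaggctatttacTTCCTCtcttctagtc
Fcgrt, chr7:45103852-45104072: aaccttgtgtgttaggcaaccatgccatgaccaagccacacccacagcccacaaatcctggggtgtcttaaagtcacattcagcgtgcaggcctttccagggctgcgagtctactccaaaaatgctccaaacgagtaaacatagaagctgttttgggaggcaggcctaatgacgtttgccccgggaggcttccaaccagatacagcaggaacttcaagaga
Among 32851 promoter windows of the same length, 28.3% held GAGGAA and 8.30% held TTCNNNGAA, so either match is common. The windows of *Fcgr3* held GAGGAA, and those of *Fcgr2b* and *Fcer1g* held neither. A match is a description of letters and not a bound site.

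The gamma chain and the 4 Fc gamma receptors were highest in macrophage-like cells, whereas *Fcgrt*, over all suffixes pooled, was highest in fibroblast-like cells. That rank did not hold in suffix 2, where the 150 macrophage-like cells were at 162 CPM *Fcgrt* and fibroblast-like cells at 52.6 CPM. Unnamed cluster 15, with 850 of its 1039 cells in suffix 2, was not counted as macrophage-like. It held only 293 *Fcgrt* UMIs in all, and the macrophage-like value in suffix 2 depends on leaving it out. Smooth muscle-like and pericyte-like cells of suffix 2, at 73.5 and 66.0 CPM, also lay above the fibroblast-like cells. Macrophage-like cells contained 90.6% of all *Fcgr1* UMIs of the kept cells, 91.6% of *Fcgr4*, 78.6% of *Fcgr3*, 77.1% of *Fcgr2b* and 81.6% of *Fcer1g*, but 17.6% of *Fcgrt*. The unnamed clusters came next, with 12.3% of the *Fcgr3*, 16.5% of the *Fcgr2b* and 6.996% of the *Fcgr1* UMIs, and cluster 15 alone, led by *Arg1* and *Ccl24*, held 14.5% of the *Fcgr2b* UMIs. Granulocyte-like cells contributed 6.06% of the *Fcgr3* UMIs and 0.0534% of the *Fcgr1* UMIs, and fibroblast-like cells 48.1% of the *Fcgrt* UMIs. Against all other kept cells together, with 10 CPM added to both sides, 5 of the 6 genes were at least 2-fold higher in macrophage-like cells, where 8.9% of the 9439 genes with at least 10 CPM were that much higher and 20.1% that much lower. The folds were 22.8 for *Fcgr4*, 18.7 for *Fcgr1*, 12.1 for *Fcer1g*, 9.30 for *Fcgr3* and 8.04 for *Fcgr2b*. *Fcgrt* passed neither limit, at 76.7 CPM in macrophage-like and 128 CPM in the other cells. Suffix 4 decided several of these levels, since without it macrophage-like cells were at 314 CPM *Fcgr1* in place of 577, at 181 CPM *Fcgr4* in place of 853 and at 209 CPM *Fcgrt*.

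**Figure D1:**
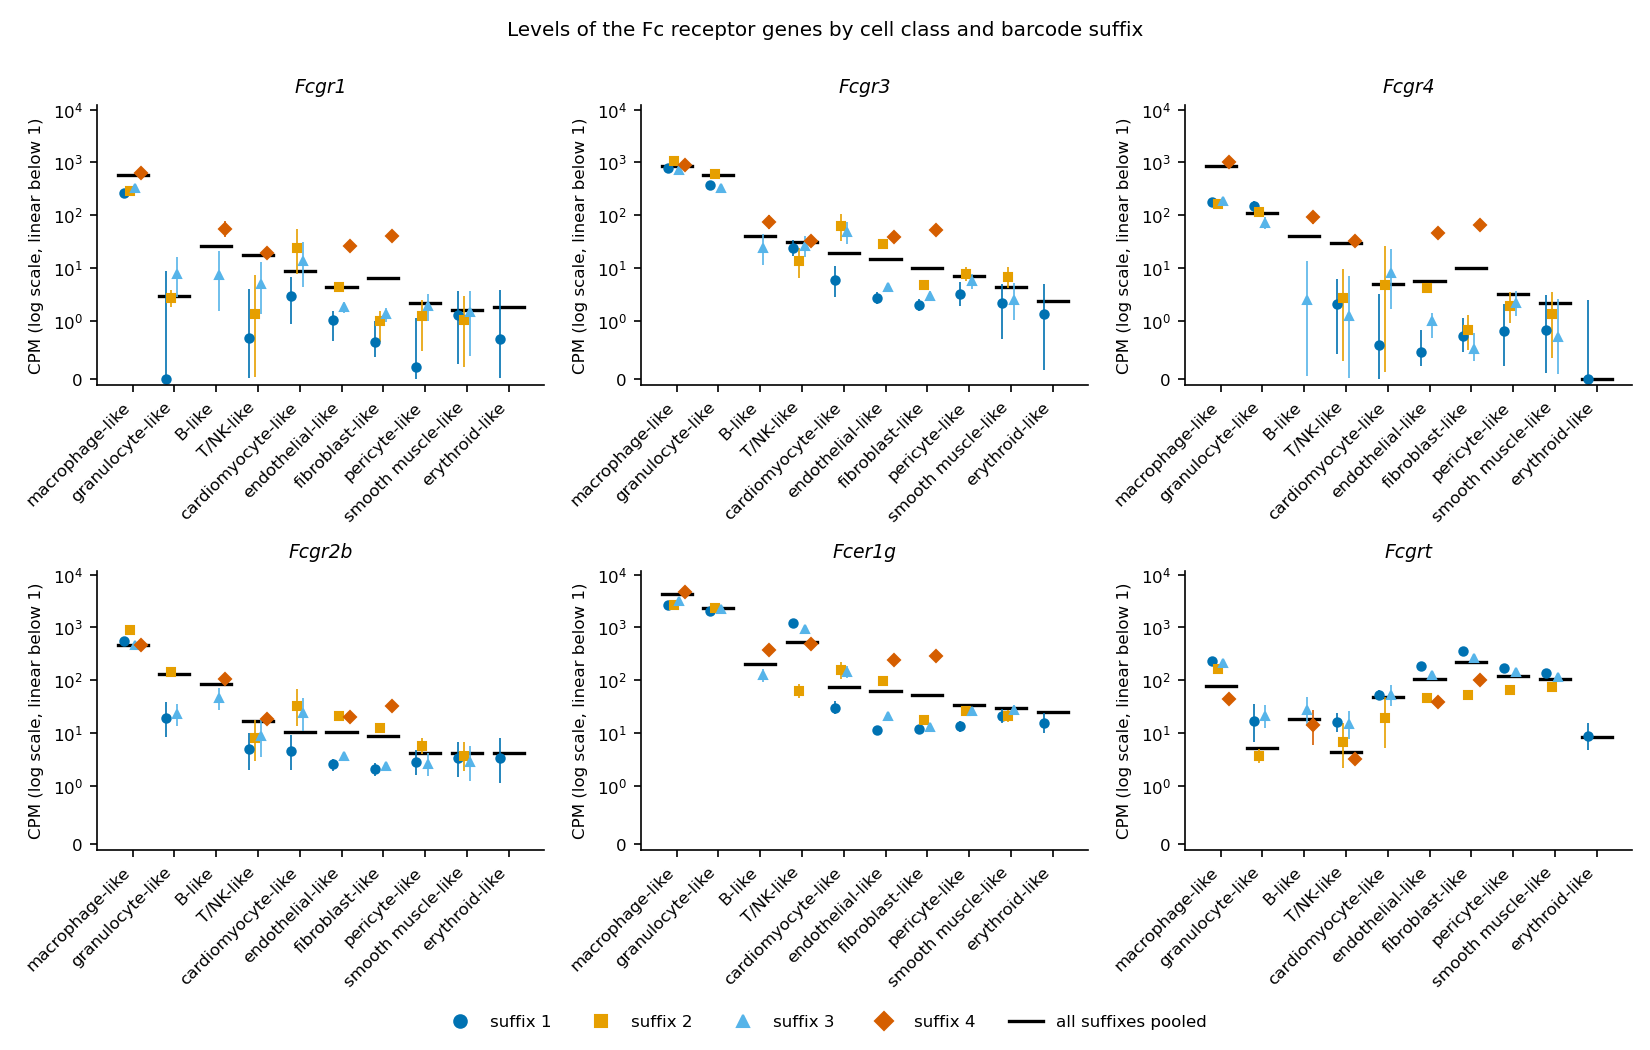
Level of each gene in CPM (vertical axis, logarithmic and linear below 1) in the 10 named cell classes (horizontal axis), with 1 point per barcode suffix of at least 50 cells, exact Poisson 95% intervals as error bars and a black line for all suffixes pooled. Macrophage-like cells lie highest in all panels but *Fcgrt*, where fibroblast-like cells lead at 224 CPM when pooled, and the suffix 4 points of endothelial-like and fibroblast-like cells lie above those of suffixes 1 and 3 for *Fcgr1*, *Fcgr3*, *Fcgr4*, *Fcgr2b* and *Fcer1g*.

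*Fcgr1* encodes the high-affinity receptor CD64, used in flow cytometry to tell macrophages from dendritic cells. In macrophage-like cells it was at 264, 288, 334 and 642 CPM in suffixes 1 to 4. Suffix 4 was 1.92-fold above suffix 3 (interval 1.87 to 1.98), and even the lowest of these values lay above every other named class in every suffix, the next being B-like cells of suffix 4 at 55.9 CPM and fibroblast-like cells of suffix 4 at 40.1 CPM. In granulocyte-like cells the gene was at 0 in suffix 1, which allows up to 8.91 CPM at the upper limit of the interval, at 2.70 CPM in suffix 2 and at 7.54 CPM in suffix 3. Those cells thus held *Fcgr3*, *Fcer1g* and little *Fcgr1*. *Fcgr1* UMIs were seen in 91.2% of the macrophage-like, 3.21% of the endothelial-like and 1.06% of the granulocyte-like cells, whose median totals were 14210.5, 5854 and 3735 UMIs. After each cell was thinned to 1000 UMIs these shares were 39.1%, 0.579% and 0.319%.

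*Fcgr4* encodes a receptor of intermediate affinity that binds the IgG2 subclasses, and it differed more between the libraries than any other Fc gamma receptor. Its level in macrophage-like cells was 176, 163 and 186 CPM in suffixes 1 to 3 and 1020 CPM in suffix 4. The first 3 suffixes lay close together and the intervals of suffixes 1 and 3 overlapped, while suffix 4 was 5.50-fold above suffix 3 (interval 5.29 to 5.71). The suffix 2 value rested on 150 cells. The 850 suffix 2 cells of unnamed cluster 15, not counted as macrophage-like, were lower, at 101 CPM. Thinned to the same depth, 59.5% of the macrophage-like cells of suffix 4 and 14.8% to 16.5% of those of the other suffixes had a UMI. Granulocyte-like cells were at 147, 113 and 71.6 CPM in suffixes 1 to 3, and the interval of suffix 1 reached the macrophage-like values of suffixes 1 to 3. Over all suffixes the order of the classes was macrophage-like, granulocyte-like, B-like, T/NK-like, fibroblast-like, endothelial-like, cardiomyocyte-like, pericyte-like, smooth muscle-like and erythroid-like. From granulocyte-like to smooth muscle-like cells the ranges over suffixes of neighbours in that order overlapped.

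*Fcgr3* encodes the low-affinity activating receptor of myeloid and NK cells. It varied least between suffixes in macrophage-like cells, at 776, 1084, 725 and 877 CPM in suffixes 1 to 4. The highest, suffix 2, was 1.50-fold above the lowest, suffix 3 (interval 1.43 to 1.56), but rested on 150 cells. The 850 suffix 2 cells of unnamed cluster 15, not counted as macrophage-like, were at 858 CPM. Granulocyte-like cells followed at 367, 604 and 332 CPM in suffixes 1 to 3, a range that stayed below the macrophage-like range. Thinned, 53.6% of macrophage-like and 41.8% of granulocyte-like cells had a *Fcgr3* UMI, against 2.26% of endothelial-like cells.

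*Fcgr2b*, the inhibitory receptor gene, had another order of libraries. Macrophage-like cells were at 547, 896, 462 and 458 CPM in suffixes 1 to 4. Suffix 2, which holds 150 of these cells, stood apart from the others, and suffixes 3 and 4 did not differ beyond their intervals. The suffix 2 cells of unnamed cluster 15, not counted as macrophage-like, were at 691 CPM. Suffix 4, the highest for *Fcgr1*, *Fcgr4* and *Fcer1g*, was thus not high for *Fcgr2b*. In granulocyte-like cells the gene was at 143 CPM in suffix 2 and at 19.3 and 22.6 CPM in suffixes 1 and 3. B-like cells were at 46.1 CPM in suffix 3 and 105 CPM in suffix 4, the 2 suffixes with at least 50 of them.

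*Fcer1g* was at 2666, 2709, 3119 and 4714 CPM in the macrophage-like cells of suffixes 1 to 4, and at 2019, 2311 and 2249 CPM in the granulocyte-like cells of suffixes 1 to 3. Suffix 4 was again the highest among the macrophage-like cells. The gamma chain serves several receptors besides those for immunoglobulin G, and its UMIs were nearly ubiquitous in these cells, in 99.4% of macrophage-like and 92.6% of granulocyte-like cells, or 96.2% and 86.2% after thinning. In endothelial-like cells the share was 23.1%, or 7.01% after thinning.

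Single macrophage-like cells carried several receptors at once. Of the 7538 cells, 5960 (79.1%) had UMIs of all 4 Fc gamma receptors, 1000 had 3 of them and 89 had none. UMIs of *Fcgr2b* together with at least 1 activating receptor were found in 6753 cells (89.6%). These shares rest on the depth of the cells and are lower limits for joint expression only as far as free RNA adds no UMIs, which was not tested.

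The macrophage-like class was clustered again, with the same genes left out, into 10 subclusters that were named by markers where possible. The subcluster with the resident macrophage name, 1280 cells almost all from suffixes 1 and 3, was named from 3 of 9 resident markers. It was led by *Fcrls*, *Ms4a7* and *Cx3cr1*, among others. It had 322 CPM *Fcgr1*, 769 CPM *Fcgr3*, 190.2 CPM *Fcgr4*, 503 CPM *Fcgr2b*, 3066 CPM *Fcer1g* and 221 CPM *Fcgrt*. Its cells of suffixes 1 and 3 were alike for *Fcgr4*, at 185 and 189 CPM.

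A second subcluster with the resident name, 149 cells almost all from suffix 2 and led by *Cxcl13*, *Cd163* and *F13a1*, had nearly the same *Fcgr1* and *Fcgr4* levels, 287 and 163 CPM. Its *Fcgr3* and *Fcgr2b* levels, 1076 and 868 CPM, were the highest of all 10 subclusters. The name of these 149 cells rested on 6 of 9 markers. At a lower resolution the group of suffixes 1 and 3 lost the resident name and 148 cells kept it. At a higher resolution 1004 cells, nearly all of suffixes 1 and 3, had the resident name. A group of 276 cells, 223 of them of suffix 3, then took the Arg1 macrophage name.

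The remaining large subclusters held suffix 4 cells. The 1154 cells with the infiltrating monocyte name, led by *Chil3*, *Ly6c2* and *Vcan*, had 676 CPM *Fcgr1*, 895 CPM *Fcgr3* and 801 CPM *Fcgr4*. Their *Fcgr2b* level of 307 CPM and *Fcgrt* level of 12.5 CPM were low among the subclusters. At a lower resolution the infiltrating name went to 2503 cells. These had 541 CPM *Fcgr1*, 799 CPM *Fcgr3*, 801 CPM *Fcgr4* and 340 CPM *Fcgr2b*. The 405 cells with the Arg1 macrophage name, led by *Ccl8* and *Arg1*, had 1516 CPM *Fcgr4* and 602 CPM *Fcgr2b*, and with 136 CPM they had more *Fcgrt* than the larger suffix 4 subclusters. The largest subcluster, 2339 unnamed cells led by *Selenom*, *Ly6i*, *Ccl5* and *Cxcl9*, had 720.1 CPM *Fcgr1* and 1073 CPM *Fcgr4*.

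The nonclassical monocyte name went to 1420 cells led by *Treml4*, *F10* and *Ear2*, to 948 cells at a higher resolution and to none at a lower one. They had the highest *Fcer1g* level, 5238 CPM, and the lowest *Fcgr1* level among the 5 largest suffix 4 subclusters, 434 CPM. The 142 cells with the mature dendritic name, led by *Ccr7* among others, had the lowest *Fcgr3* and *Fcgr2b* levels of the class, 301 and 163 CPM. *Fcgr4* was thus at 382 to 1659 CPM in the 6 subclusters made up of suffix 4 cells, and at 163 to 190.2 CPM in the 3 made up of cells of the other suffixes. Subcluster and suffix coincide here and cannot be told apart.

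**Figure D2:**
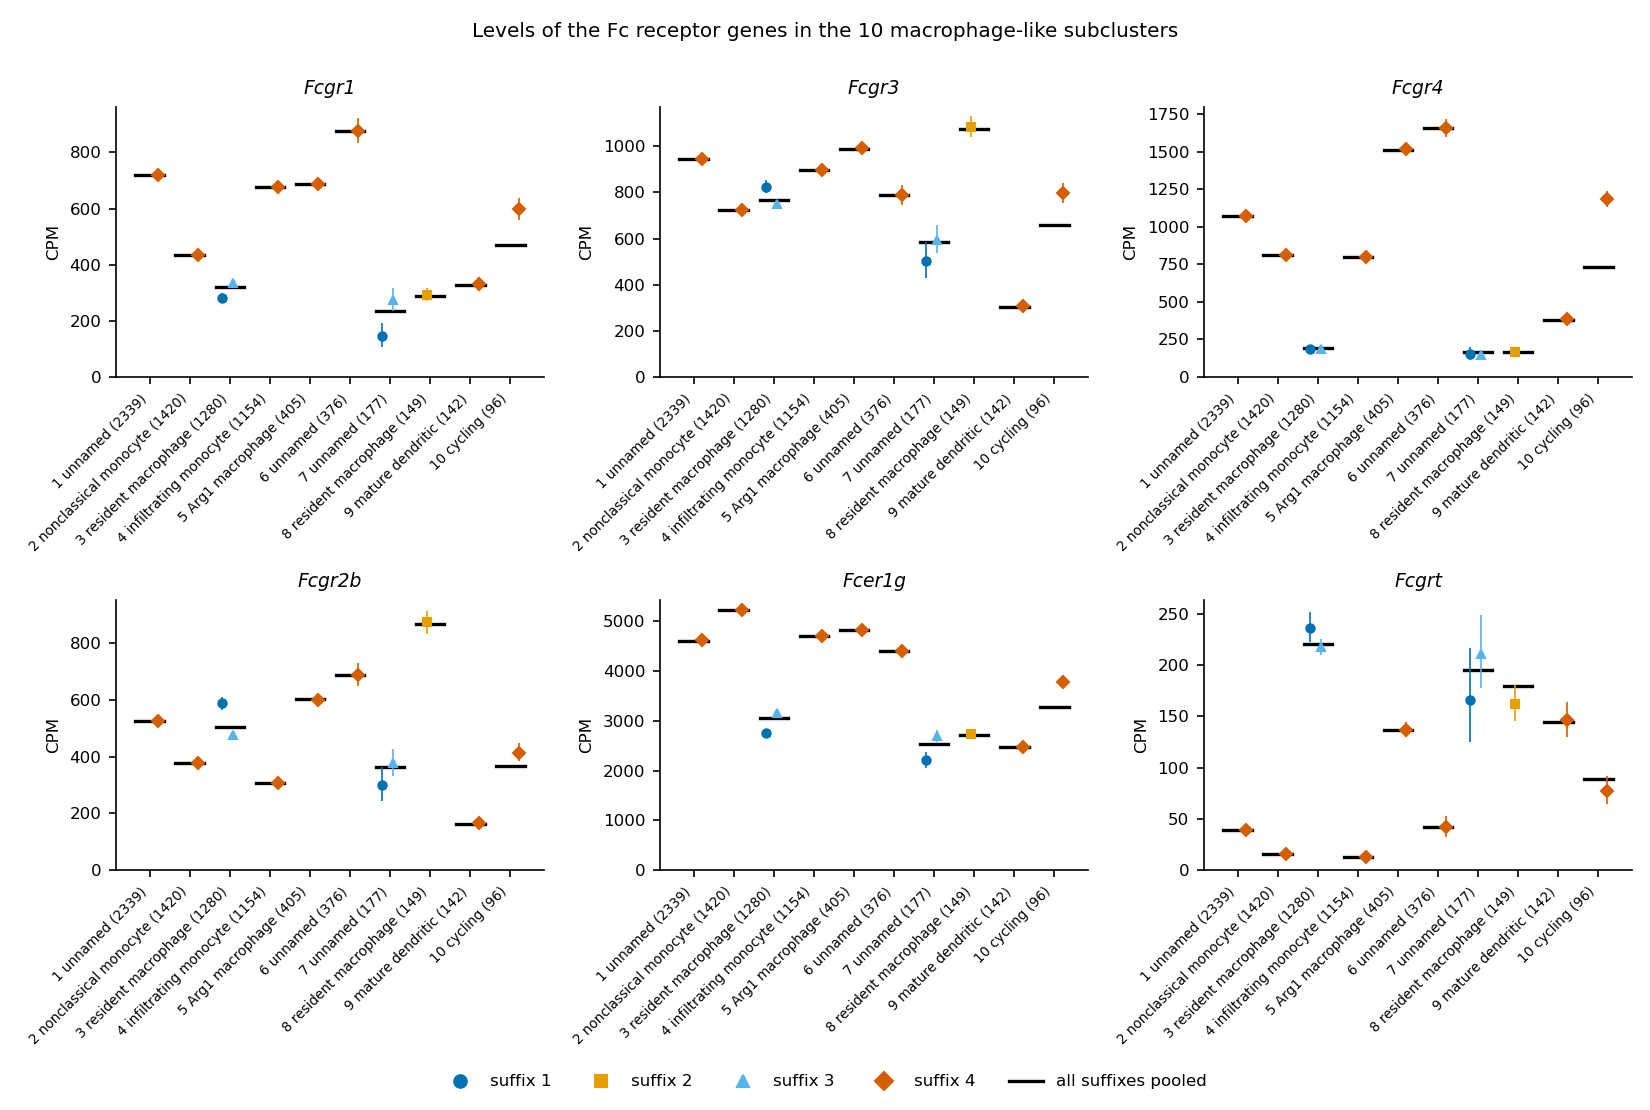
Level of each gene in CPM (vertical axis, linear, starting at 0) in the 10 subclusters of macrophage-like cells (horizontal axis, number, name by markers and cells in brackets), with 1 point per barcode suffix of at least 50 cells, exact Poisson 95% intervals and a black line for the whole subcluster. *Fcgr4* and *Fcgrt* separate the suffix 4 subclusters from the resident-named ones in opposite directions, while *Fcgr3* ranges from 301 to 1076 CPM without such a split.

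The balance of activating to inhibitory receptor UMIs, summed over *Fcgr1*, *Fcgr3* and *Fcgr4* and divided by *Fcgr2b*, differed between myeloid groups by more than counting error. It was 2.22 (interval 2.12 to 2.32), 1.71 (1.62 to 1.81), 2.69 (2.62 to 2.77) and 5.54 (5.48 to 5.60) in macrophage-like cells of suffixes 1 to 4. Without suffix 4 the ratio of the class fell from 4.85 to 2.42. Among the subclusters it was highest in the 1154 infiltrating-named cells, 7.74 (interval 7.51 to 7.97). It was lowest in the resident-named cells of suffix 2, 1.76 (1.66 to 1.86). Among granulocyte-like cells the ratio was 26.6 (interval 13.3 to 62.5), 5.02 (4.76 to 5.30) and 18.2 (11.3 to 31.0) in suffixes 1 to 3, so that suffix 2 was the lowest for both classes. The suffix 1 value rested on 8 *Fcgr2b* UMIs. An unnamed granulocyte-like subcluster held 85 of the 97 cells of suffix 1, 246 of the 253 of suffix 3 and 4 of suffix 2. Subcluster and suffix therefore cannot be told apart among these cells.

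The unnamed cluster 15, of which 850 of 1039 cells carried suffix 2, was led by *Arg1*, *Ccl24* and the platelet gene *Ppbp* and had a ratio of 1.81 (interval 1.76 to 1.85). The unnamed cluster 20, 775 cells almost all of suffix 4, detected granulocyte markers at low depth, and its ratio was 13.97 (interval 12.5 to 15.7). It held 892 CPM *Fcgr4* and 143 CPM *Fcgr1*, both far above the granulocyte-like cells of the other suffixes. The unnamed cluster 13, led by *Ccr7*, *Xcr1* and *Flt3*, genes of dendritic cells, had no common ratio. It was 0.609 (interval 0.472 to 0.783) and 0.506 (0.383 to 0.665) in the 68 and 69 cells of suffixes 1 and 3. There *Fcgr2b* UMIs outnumbered those of the activating receptors, but capture differs between genes, so a ratio of 1 has no meaning of its own. In the 1096 cells of suffix 4 it was 4.57 (4.07 to 5.13). That value was not particular to cluster 13. T/NK-like, endothelial-like and fibroblast-like cells of suffix 4 were at 4.66, 5.34 and 4.90, and B-like cells at 2.13. The granulocyte-like subcluster led by *Il23a* and *Il1a*, 986 cells with the activated name, had a ratio of 3.23 (interval 2.99 to 3.49), against 7.88 (7.06 to 8.83) in the 688 cells with the mature name. The other subcluster with the activated name, 693 cells led by *Bnip3* and *Ero1l*, was at 7.22 (6.41 to 8.16), within reach of the mature-named cells, so the ratio did not follow the names. All 3 subclusters were almost wholly of suffix 2.

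**Figure D3:**
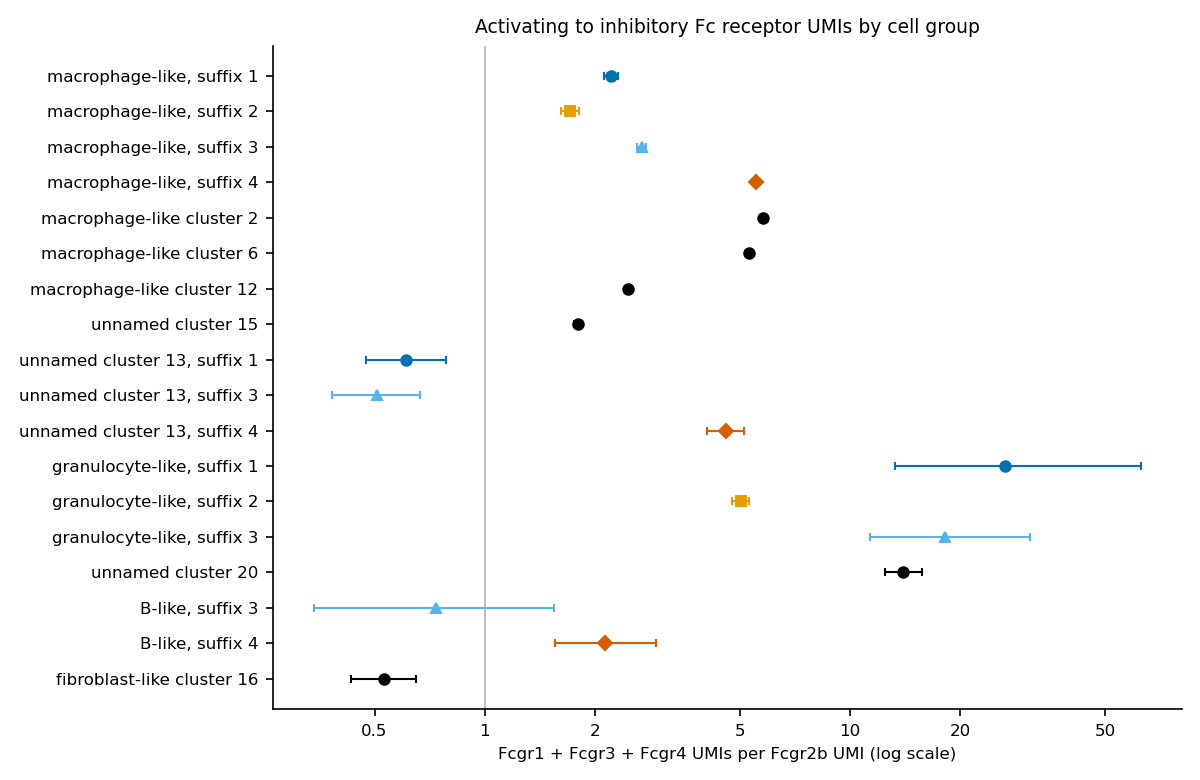
UMIs of *Fcgr1*, *Fcgr3* and *Fcgr4* together per *Fcgr2b* UMI (horizontal axis, logarithmic) by cell group (vertical axis), with exact 95% intervals for counting error. Coloured points are single suffixes, black points whole clusters and the grey line equal numbers. Macrophage-like cells lie at 5.54 in suffix 4 and at 1.71 to 2.69 in the others. Cluster 13 of suffixes 1 and 3 (0.609 and 0.506) and fibroblast-like cluster 16 (0.530) have whole intervals below the line. Capture differs between genes, so the line has no meaning of its own.

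T/NK-like cells held *Fcer1g* and little else of the set. By suffix, *Fcer1g* was at 1232, 63.8, 916 and 484 CPM in suffixes 1 to 4. In the subclusters named NK it was at 2158 CPM (232 cells, suffix 4) and 2343 CPM (104 cells, mostly suffixes 1 and 3). A cycling subcluster of 59 cells reached 1742 CPM, whereas the other 6 subclusters lay between 89.0 and 464 CPM.

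*Fcgr3*, the receptor through which NK cells kill antibody-coated targets, was at 66.0 and 55.7 CPM in the subclusters named NK. In the 104 cells *Fcgr4* was at 3.15 CPM and *Fcgr1* at 0. In suffix 1, where 64 of them lay, *Fcgr3* stood at 48.3 CPM beside 1.92 CPM in an unnamed subcluster of 90 cells of the same suffix. In the 232 cells of suffix 4, *Fcgr1* and *Fcgr4* were at 20.3 and 28.5 CPM, within the range of the other subclusters of that suffix. With *Fcgr3* added, these cells held 266 UMIs of the 3 activating receptors. The 505 suffix 4 cells with the regulatory T name held 694. Median totals of the 2 subclusters were 8996 and 6752 UMIs. These sums join the 3 receptors and do not compare *Fcgr3* alone. All T/NK-like cells of suffix 4 together were at 31.8 CPM *Fcgr3*, 19.5 CPM *Fcgr1* and 33.1 CPM *Fcgr4*. These means include the NK-named cells and a cycling subcluster with a median of 27419 UMIs. They therefore do not show whether *Fcgr3* was higher in NK-named cells than in each of the other subclusters. Whether the *Fcgr3* level of the NK-named cells of suffix 4 is expression by these cells was not tested.

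B-like cells stood out for the inhibitory receptor gene. They held 28.0 *Fcgr2b* UMIs per 100 *Fcer1g* UMIs in suffix 4 (interval 20.7 to 37.5) and 36.5 in suffix 3 (20.4 to 62.9). Macrophage-like cells held 9.72 and 14.8 in the same suffixes. For *Fcgr1*, *Fcgr3* and *Fcgr4* the intervals of the B-like cells included the macrophage-like value in suffix 4.

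Endothelial-like and fibroblast-like cells held low levels that changed with the suffix. *Fcer1g* was at 11.5, 96.0, 21.4 and 238 CPM in endothelial-like cells of suffixes 1 to 4 and at 11.8, 17.8, 13.1 and 286 CPM in fibroblast-like cells. *Fcgr4* was at 0.472, 4.20, 0.999 and 45.7 CPM in the former and 0.743, 0.835, 0.516 and 65.4 CPM in the latter. Suffix 4, where macrophage-like cells are most abundant, was the highest in each case. The suffix 2 value of the endothelial-like cells rested on cluster 18, whose 1023 cells were at 719 CPM *Fcer1g*, while the 3344 cells of cluster 3, nearly all of that suffix, were at 22.9 CPM, near suffix 3. Cluster 18 was named from 3 of 9 endothelial markers, and within the class its cells were led by *Cxcl3*, *Retnlg*, *S100a9* and *S100a8*, genes of granulocytes and inflamed tissue.

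The summed macrophage markers were highest in suffix 4 too, at 193, 286, 280.2 and 940 CPM in endothelial-like cells of suffixes 1 to 4, and at 236, 97.5, 282 and 1200.05 CPM in fibroblast-like cells, with none of the 10 markers at 0. They did not follow *Fcer1g* among the other suffixes, since endothelial-like cells of suffixes 2 and 3 had like sums and fibroblast-like cells of suffix 2 had the lowest sum. The summed granulocyte markers were at 62.4, 3557, 32.3 and 111 CPM in endothelial-like and at 347, 811, 90.9 and 71.6 CPM in fibroblast-like cells, highest in suffix 2 and with none of the 8 at 0.

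The proportions among the receptors were set beside those of the macrophage-like cells of the same library. In suffix 4, endothelial-like cells held 10.8 *Fcgr1*, 16 *Fcgr3*, 19.2 *Fcgr4* and 8.61 *Fcgr2b* UMIs per 100 *Fcer1g* UMIs, fibroblast-like cluster 23 held 14.01, 18.2, 22.8 and 11.2, and macrophage-like cells held 13.6, 18.6, 21.6 and 9.72. The order of the 4 receptors was the same in all 3 groups. The endothelial-like intervals left out the macrophage-like value for *Fcgr1* (9.32 to 12.4), *Fcgr3* (14.2 to 18.03) and *Fcgr4* (17.1 to 21.4). The interval of cluster 23 did so for *Fcgr2b* (10.2 to 12.4). These intervals cover counting error only and not the concentration of UMIs in few cells. In cluster 23, 25 of 559 cells held 52.5% of the *Fcgr2b* UMIs. In endothelial-like cluster 22, 7 of 639 cells held 27.7% of the *Fcgr4* UMIs. In suffix 2 cluster 3 and cluster 18 with its granulocyte genes held 31.6 and 29.5 *Fcgr3* and 21.6 and 21.5 *Fcgr2b* UMIs, between granulocyte-like cells (26.1 and 6.21) and macrophage-like cells (40.01 and 33.1). Whether these low levels are expression by the cells themselves was not tested, nor was the part of free RNA and of joined cells. They are means over uneven cells. In cluster 23, 82.2% of the *Fcer1g* UMIs stood in 109 of 559 cells and 65.2% of the *Fcgr4* UMIs in 38, each with at least 5. The share of cells with a UMI in suffix 4 was 29.3% for *Fcgr4* in endothelial-like cells, or 4.73% after thinning.

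Another group departed from these proportions, for *Fcgr2b*. Fibroblast-like cluster 16, 1038 cells led by *Prg4*, *Cxcl5* and *Ptx3* of which 1028 carried suffix 2, held 69.7 *Fcgr2b* UMIs per 100 *Fcer1g* UMIs (interval 59.6 to 81.4), more than the macrophage-like cells of its library. Its *Fcgr3* value of 26.6 (interval 21.2 to 33.0) was not raised. The UMIs were concentrated, with 179 of the 279 *Fcgr2b* UMIs, 64.2%, in 19 cells with at least 5 each. Of the *Fcer1g* UMIs 17.0% stood in the 7 cells with at least 5. Concentration was not particular to this cluster. In fibroblast-like cluster 23, cells with at least 5 UMIs were 25 of 559 for *Fcgr2b*, with 52.5% of its UMIs. They were 29 for *Fcgr1* with 68.8% and 109 for *Fcer1g* with 82.2%. *Fcgr2b* UMIs were found in 93 of the 1038 cells. This cluster was singled out after its values were seen.

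**Figure D4:**
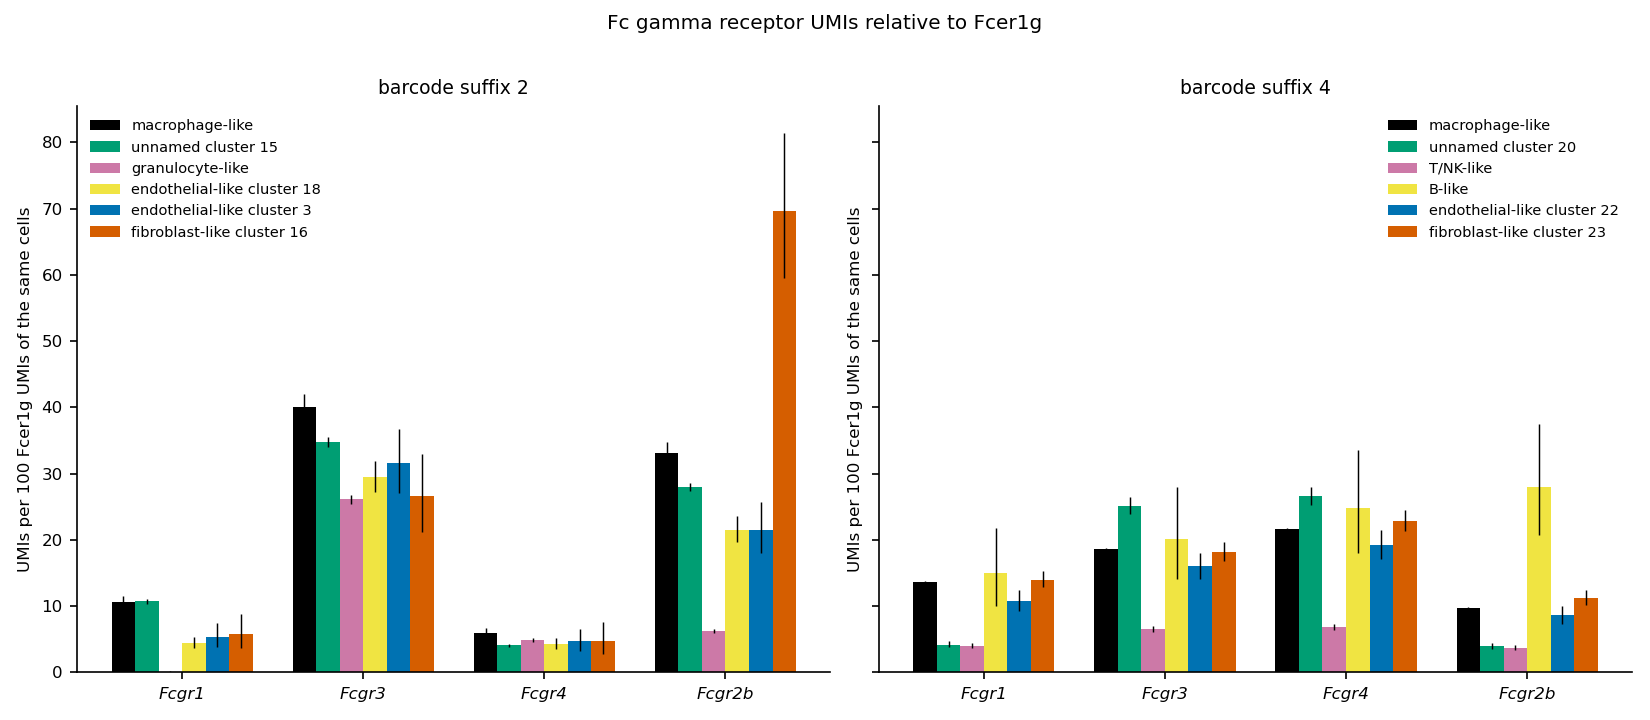
UMIs of the 4 Fc gamma receptors per 100 *Fcer1g* UMIs of the same cells (vertical axis, from 0) in 6 cell groups each of barcode suffix 2 (left) and 4 (right), with exact 95% intervals for counting error. In suffix 4 the endothelial-like and fibroblast-like bars stand near the black macrophage-like bars, B-like cells are higher for *Fcgr2b* at 28.0, and in suffix 2 fibroblast-like cluster 16 is higher for *Fcgr2b* at 69.7.

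*Fcgrt* had a distribution of its own. Pooled over the suffixes it was highest in fibroblast-like cells, 224 CPM, followed by pericyte-like cells at 122, smooth muscle-like cells at 105, endothelial-like cells at 105, macrophage-like cells at 76.7 and cardiomyocyte-like cells at 47.8 CPM. B-like, erythroid-like, granulocyte-like and T/NK-like cells were between 4.36 and 18.2 CPM. Over the suffixes the ranges of the first 5 classes overlapped, so the order within them depends on the library. *Fcgrt* UMIs were seen in 81.9% of the fibroblast-like and 2.10% of the granulocyte-like cells, whose median totals were 15195 and 3735 UMIs, or in 21.7% and 0.674% after thinning.

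Between libraries *Fcgrt* moved the same way in many classes. Fibroblast-like cells were at 364, 52.6, 268 and 102 CPM in suffixes 1 to 4, and endothelial-like cells at 187, 45.5, 125 and 38.6 CPM. Macrophage-like cells were at 231, 162, 209 and 43.9 CPM, pericyte-like cells at 167, 66.0 and 144 CPM and smooth muscle-like cells at 135, 73.5 and 117 CPM in suffixes 1 to 3. Over all suffixes but 4 macrophage-like cells were at 209 CPM in place of 76.7. In each of these 5 classes suffixes 1 and 3 lay above suffix 2, and above suffix 4 where it had at least 50 cells. Thinned shares followed, at 30.4%, 5.58%, 23.8% and 7.97% of fibroblast-like cells. Fibroblast-like cells of suffixes 2 and 4 belonged mainly to clusters 16 and 23 and those of suffixes 1 and 3 to clusters 4 and 8, so cell state and library cannot be told apart. Pericyte-like and smooth muscle-like cells each formed 1 cluster with cells of suffixes 1 to 3.

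Among endothelial-like subclusters *Fcgrt* was at 309 CPM in the 163 cells with the lymphatic name, at 78.6 CPM in the arterial-named and 103 CPM in the endocardial or venous-named cells. Within the arterial-named cells suffixes 1, 2 and 3 were at 107, 15.3 and 76.3 CPM. The capillary-named subclusters, both of suffix 2, were at 45.5 and 56.3 CPM, and the inflamed-named cells of suffix 4, led by *Ubd* and *Cxcl9*, at 34.3 CPM. Not listed are the large unnamed subclusters of 2320, 2142 and 1496 cells, nearly all of suffixes 1 and 3. Cluster 1, also of these suffixes, held 7764 of the 10781 *Fcgrt* UMIs of the class. In suffix 1 the whole class was at 187 CPM, so the low values listed do not stand for the class. With suffixes pooled, the lymphatic-named cells were the highest of the 12 subclusters. Of these 163 cells 77 were of suffix 1 and 73 of suffix 3, so subcluster and library are mixed in that rank.

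**Figure D5:**
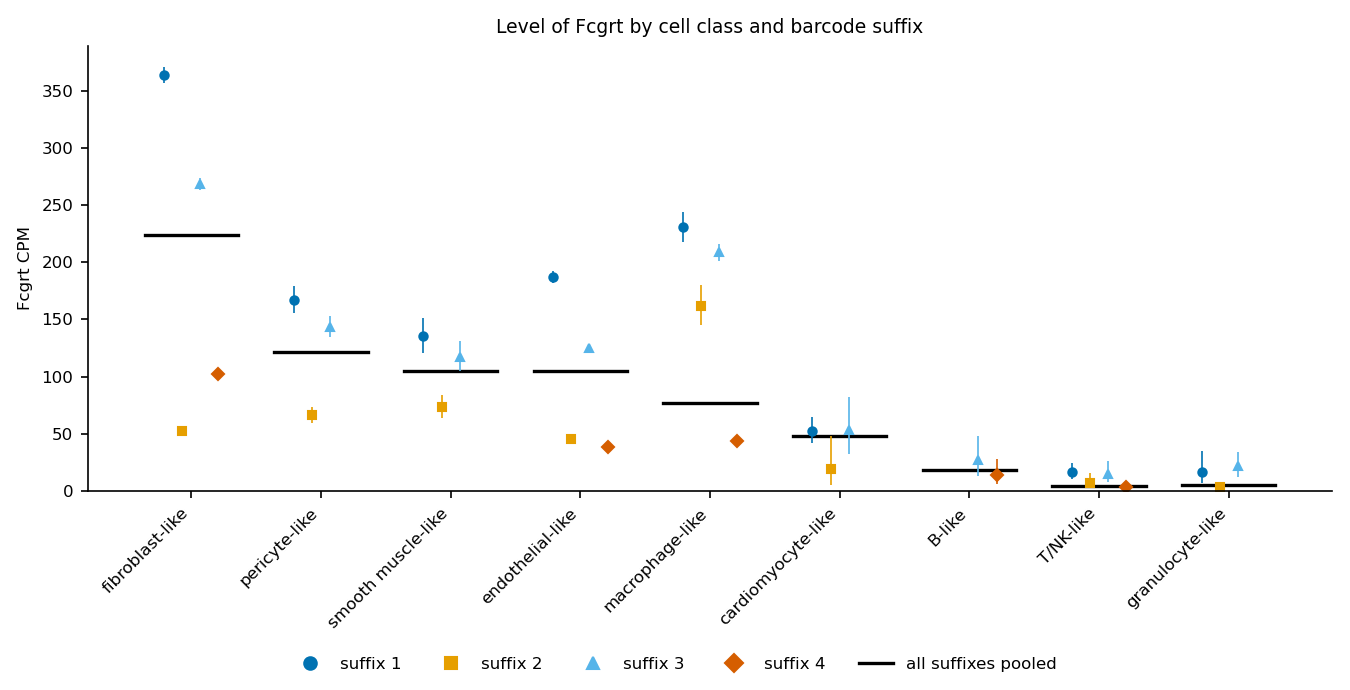
Level of *Fcgrt* in CPM (vertical axis, from 0) in 9 cell classes (horizontal axis), with 1 point per barcode suffix of at least 50 cells, exact Poisson 95% intervals and a black line for all suffixes pooled. Suffixes 1 and 3 lie above suffix 2 in fibroblast-like, pericyte-like, smooth muscle-like, endothelial-like and macrophage-like cells, from 364 and 268 against 52.6 CPM in the first.

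The wider pathway was read from a fixed list of 51 genes, of which 32 reached 10 CPM. At least 2-fold higher in macrophage-like than in all other cells were 24 of the 32, and 1 was that much lower, with a median log2 fold of 1.86 against -0.26 over all 9439 genes tested. The other cells are mostly not immune cells, and 12 of the 24 had their highest level in another class than macrophage-like cells. Of 14 activating kinases and adaptors 12 were higher, among them *Lyn* (326 against 81.4 CPM), a Src-family kinase that phosphorylates the ITAM, and *Syk* (152 against 31.0 CPM), which was higher still in B-like cells at 337 CPM. *Prkcd*, a protein kinase C gene, was at 214 against 57.6 CPM, and at 289 CPM in granulocyte-like cells. *Vav3* and *Gab2* passed neither limit.

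Of 8 inhibitory genes that reached the minimum 6 were higher. *Ptpn6*, which encodes the phosphatase SHP-1, was at 441 against 44.8 CPM, *Pirb*, an inhibitory receptor gene, at 592 against 48.0 CPM, *Inpp5d* at 125 against 35.8 CPM (295 CPM in B-like cells) and *Csk*, a kinase gene that restrains Src-family kinases, at 139 against 49.6 CPM. Activating and inhibitory genes were thus both higher than in the other cells pooled. Of the receptors that pair with the gamma chain, 3 of 4 were higher, namely *Clec4e* (392 against 136 CPM), *Clec4n* (264 against 43.0 CPM) and *Pira2* (88.9 against 13.3 CPM), and *Clec4d*, at 125 against 107 CPM, was not. Granulocyte-like cells stood above macrophage-like cells for 3 of these, at 1545 CPM *Clec4e*, 1417 CPM *Clec4d* and 121 CPM *Pira2*.

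The ITAM adaptors differed, with *Tyrobp* at 2512 against 389 CPM (3319 CPM in granulocyte-like cells) and *Cd247*, the zeta chain of T-cell receptors, at 1.78 against 14.6 CPM. *B2m*, the partner of the neonatal receptor, was at 3943 against 1586 CPM and so did not share the distribution of *Fcgrt*. Of 12 other Fc receptor genes 2 reached the minimum. *Fcrls* was higher, at 188 against 3.18 CPM, and *Trim21*, the cytosolic antibody receptor gene, was not. *Fcmr*, the IgM receptor gene, reached 547 CPM in B-like cells, *Fcrla* 309 CPM and the low-affinity IgE receptor gene *Fcer2a* 130 CPM. Of the 7 immunoglobulin genes only *Ighm* reached the minimum, at 3027 CPM in B-like cells, while *Igha* and *Ighg3* were at 10.9 and 9.49 CPM there and *Ighg2b* at 7.30 CPM.

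Across the 28 clusters, the genes whose log2(CPM + 10) followed each member most closely were listed as a description, since clusters share libraries and depth. *Fcgr1* was closest to *Clec4a3* (r = 0.990), *Clec4a1* (0.986) and *Ms4a6c* (0.981), and *Fcgr3* to *Pla2g7* (0.990), *Pirb* (0.980) and *Osm* (0.977). *Fcgr4* was closest to *Hk3* (0.974) and *Lst1* (0.963), *Fcgr2b* to *Cfp* (0.962), *Cybb* (0.962) and *Pirb* (0.956), and *Fcer1g* to *Tyrobp* (0.987), *Itgb2* (0.980) and *Pirb* (0.978). The closest to *Fcgrt* were *Nfic* (0.893), *Tmem205* (0.888) and *Zcchc24* (0.887), lower than for the other members. Among the members themselves the 4 Fc gamma receptors and *Fcer1g* correlated at 0.820 to 0.977, and *Fcgrt* with them at -0.503 to -0.206.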

How the data were processed

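The authors deposited counts of UMIs per gene and cell as a single merged matrix, with files of gene names and barcodes whose columns hold identifiers and no measurements. Per the file header and the methods they were made with Cell Ranger 3.0.0 on mm10, without normalization. The barcode suffixes carry no graft, so all cells formed 1 sample of 2 allogeneic and 2 syngeneic grafts and no group comparison or test was made. Per-suffix totals over all barcodes were 96020294 to 166079145 UMIs, and intervals cover counting error only, since cells are not replicates.

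Barcodes needed over 200 genes and a mitochondrial share under 20%. Doublets were marked per suffix by simulation (top 5% by simulated neighbours among 50). Counts were scaled to 10000, log-transformed and reduced from 2000 variable genes to 10 principal components, with the 6 genes and the 51 pathway genes left out. A shared-neighbour graph (30 neighbours) was clustered by the Leiden method at resolution 0.8, and classes again at 0.5, with seed 20. A marker counted with a UMI in 10% of cells and a 2-fold level (10 CPM added). A name needed 3 markers and was refused to clusters led by another class's genes or far below their library's depth. Suffix values needed 50 cells. Genes named are the 6, up to 4 per pathway group by their highest class level, the 3 closest by correlation across clusters (at least 50 CPM in 1), and genes of small counts named after their values were seen. A gene that this rule names is not reported here. Shares have Clopper-Pearson 95% intervals in the tables, and thinning was to 1000 UMIs. The members and lists were chosen with earlier results of these data known. Positions are from GENCODE M21 and promoter sequences from RefSeq. Clustering, pooling and the intervals of levels were tested on simulated cells drawn without library effects or free RNA. Doublet marking, naming, thinning and the ratios were not part of that test. Clustering used leidenalg 0.10.2 with igraph 0.11.9 and scikit-learn 1.9.0, intervals scipy 1.17.1, tables pandas 2.3.3 and numpy 2.4.6, and plots matplotlib 3.10.9, under Python 3.11.15.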

Additional observations from a re-analysis of the deposited data

How the results depend on the processing

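The levels in macrophage-like cells and the activating to inhibitory ratio moved beyond their counting intervals under several settings. Values are given in the order *Fcgr1*, *Fcgr3*, *Fcgr4*, *Fcgr2b*, *Fcer1g* and *Fcgrt* (CPM), then the ratio. Resolution 0.4 gave 539, 848, 765, 493, 4149, 69.8 and 4.37. Resolution 1.6 moved the first 5, to 584, 867, 864, 478 and 4405. With 20 principal components *Fcgr3* and *Fcer1g* moved to 849 and 4340.01. With doublets kept the first 5 were 571, 845, 842, 466 and 4303. Over 500 genes moved *Fcgr3*, *Fcgr4* and *Fcer1g* to 863, 860.1 and 4395. The mean of single-cell CPM gave 571 for *Fcgr1*, 824 for *Fcgr3*, 4352 for *Fcer1g* and 4.75 for the ratio. Counting unnamed cluster 15 as macrophage-like, a choice made after seeing the data, gave 539, 848, 765, 493, 4149, 69.8 and 4.37. The planned resolution 0.4 gave the same rounded values, with 8579 macrophage-like cells against 8577 here. The 2 settings are therefore not separate checks. Allowing the members among the variable genes moved none of the 7.

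Leaving out each suffix in turn gave 314 to 614 for *Fcgr1*, 772 to 876 for *Fcgr3*, 181 to 956 for *Fcgr4*, 463 to 524 for *Fcgr2b*, 2974 to 4561 for *Fcer1g*, 56.4 to 209 for *Fcgrt* and 2.42 to 5.17 for the ratio. Suffix 4 decided *Fcgr1* (314 without it), *Fcgr4* (181), *Fcgrt* (209) and the ratio (2.42). No paired analysis was possible because the barcodes carry no graft or replicate number. Depth limits shares of cells with a UMI, which fell from 91.2% to 39.1% for *Fcgr1* on thinning, and classes with few UMIs, such as B-like cells.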
